A study of Mus musculus with 6 samples.

Results

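TNF, RANKL and NF-κB genes were followed in penile squamous cell carcinoma of the mouse by reading 10 genes out of the 24063 gene symbols of the RNA-seq tables. The genes were taken by name, with earlier results of these data known. They were TNF (Tnf) with its receptors Tnfrsf1a and Tnfrsf1b, RANKL (Tnfsf11) with its receptor RANK (Tnfrsf11a) and its decoy receptor osteoprotegerin (Tnfrsf11b), the NF-κB inhibitor gene Nfkbia, and the NF-κB subunit genes Nfkb1, Nfkb2 and Relb. SA tumors (n = 3) were penile tumors that arose without carcinogen in mice aged 5 months of the genotype PB-Cre+ Smad4L/L ApcL/L, in which both alleles of each tumor suppressor gene can be deleted by Cre. WT penis samples (n = 3) were normal penile epithelium of wild type C57BL/6 mice of the same age. The probasin promoter of the Cre line, PB-Cre4, is driven by androgen receptor and acts in epithelium, so stromal and immune cells of an SA tumor keep intact alleles, and the WT mice carried no Cre. All samples were bulk tissue, in which fewer cells of a type and less RNA per cell cannot be told apart.

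TNF is a cytokine made mainly by macrophages, T cells and other leukocytes, and it signals through 2 receptors. Tnfrsf1a encodes the receptor that most cell types carry and that holds a death domain, whereas Tnfrsf1b encodes a receptor found mostly on leukocytes and endothelium. RANKL binds RANK and drives the formation of osteoclasts, the bone-resorbing cells, and osteoprotegerin is a soluble receptor that binds RANKL and keeps it from RANK. Both ligands release NF-κB dimers from IκB proteins in the canonical pathway, and RANK also drives the noncanonical pathway, in which the Nfkb2 product is processed and pairs with RelB. Nfkbia encodes IκBα, which holds dimers in the cytoplasm and is itself a well-known NF-κB target, as are Nfkb1, Nfkb2 and Relb.

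The promoters of the pathway's own genes were searched for the κB consensus, the 10-base element bound by NF-κB dimers, on both strands of the 250 bases before each start. Of the 10 genes, 7 had an entry in the RefSeq promoter table (GRCm38.p6), and the consensus occurred in 2 of these 7, Nfkbia and Nfkb2. These 7 genes had 9 windows, as Nfkb2 had several listed starts, each with a match. Among all 32851 promoter windows of the same length, counted by window and not by gene, 3.9% held a match and 0.831% held at least 2. The promoters of Nfkbia (chr12:55492648-55492897, minus strand), of the first listed Nfkb2 start (chr19:46304487-46304736, plus strand) and of Tnf (chr17:35202008-35202257, minus strand) are printed because the first and the last belong to genes that moved in opposite directions in SA tumors and the second holds the most matches. Capitals mark the consensus matches.
Nfkbia: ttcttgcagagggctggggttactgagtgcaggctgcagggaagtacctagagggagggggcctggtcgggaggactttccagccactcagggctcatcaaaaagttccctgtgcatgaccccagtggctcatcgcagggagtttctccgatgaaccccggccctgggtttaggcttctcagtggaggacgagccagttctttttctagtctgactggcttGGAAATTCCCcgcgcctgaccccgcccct
Nfkb2: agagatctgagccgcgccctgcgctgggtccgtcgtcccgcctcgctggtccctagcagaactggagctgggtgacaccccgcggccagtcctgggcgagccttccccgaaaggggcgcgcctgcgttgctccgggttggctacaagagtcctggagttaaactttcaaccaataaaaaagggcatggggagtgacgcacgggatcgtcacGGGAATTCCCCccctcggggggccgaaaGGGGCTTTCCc
Tnf: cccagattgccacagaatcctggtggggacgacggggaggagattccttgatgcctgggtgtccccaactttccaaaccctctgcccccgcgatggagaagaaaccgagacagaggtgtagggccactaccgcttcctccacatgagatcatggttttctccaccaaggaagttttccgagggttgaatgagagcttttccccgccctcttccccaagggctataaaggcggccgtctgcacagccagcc
The Nfkbia match lay from -29 to -20 relative to the start. The Nfkb2 window held a palindromic match from -39 to -30, read on both strands, an overlapping match from -38 to -29 and another from -11 to -2. Tnf, Tnfrsf1a, Tnfrsf1b, Tnfsf11 and Tnfrsf11a held no match in this window. These matches are letters in a reference sequence, and no binding was measured.

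Gene rows held 23828283 to 110509147 counts per library, and SA tumor 3 exceeded the median depth of the remaining libraries by a factor of 4.42. A level of 3 counts, taken as the floor, corresponded to 0.0244 to 0.137 CPM (library-scaled counts, TMM normalized). Of the 24063 symbols, 16336 passed the filter on low counts, including all 10 genes. A gene was called at an edgeR adjusted p under 0.01, which 6148 genes (37.6%) reached, 3283 (20.1%) higher and 2865 (17.5%) lower in SA tumors. Scaling by library totals only moved the median log2 fold change of all genes from 0.03 to 0.31 and the split from 3283 higher and 2865 lower to 5248 and 1806, so small differences below depend on scaling. Smad4 was 39.6 ± 5.61 CPM in SA tumors and 67.8 ± 5.92 in WT penis (SD, n = 3 each; log2 fold change -0.77, adjusted p = 0.00114), and Apc was 215 ± 33.4 and 79.6 ± 15.1 (1.43, adjusted p = 0.000185). With library totals only Smad4 was no longer called (-0.49, adjusted p = 0.0152). Apc was higher in tumors labelled as deleted for it. The counts cover whole transcripts, so the loss of floxed exons was not checked by them.

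Of the 10 genes, 3 rose and 3 fell in SA tumors, and 4 did not pass the test, beside the 37.6% of all genes that were called. The 3 that rose, Tnfrsf11b, Tnf and Tnfrsf1b, also passed a log2 fold change of 2, which 1537 genes (9.41%) did in that direction. The 3 that fell, Tnfrsf1a, Nfkbia and Nfkb1, all changed by less than a log2 fold change of 1. The median log2 fold change of the 10 genes was -0.08, against 0.03 for all genes tested, and it was 0.21 when libraries were scaled by their totals only. The 2 groups did not overlap in CPM for 8 of the 10 genes, a pattern that 63.4% of all tested genes showed. The plot of the 10 genes by library shows large separations for Tnf, Tnfrsf1b and Tnfrsf11b and small ones among the NF-κB subunit genes.

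**Figure D1:**
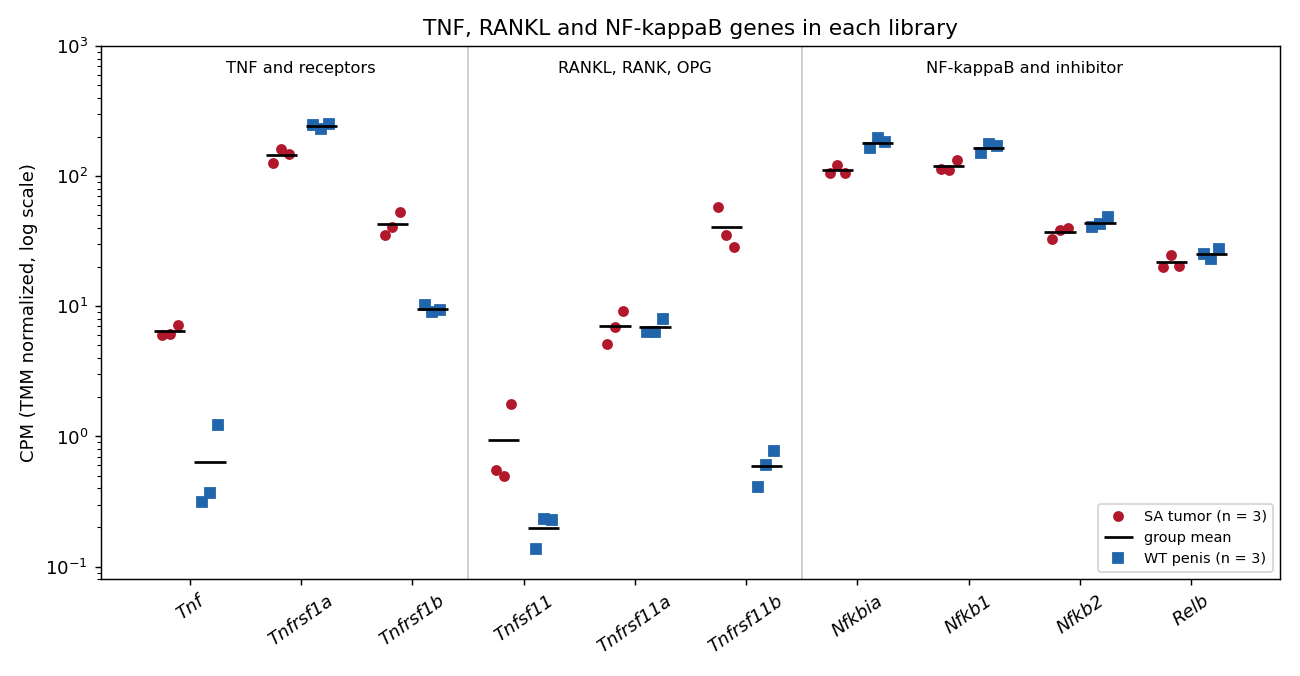
Each point is 1 library; the vertical axis is CPM (TMM normalized) on a log scale and horizontal bars are group means (n = 3). Tnfrsf11b sits between 28.7 and 57.7 CPM in SA tumors and between 0.407 and 0.775 in WT penis, while the NF-κB subunit genes differ little between groups.

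Tnf, on chr17:35199367-35202007 (GRCm38, minus strand), rose in SA tumors. Its levels were 6.02, 6.09 and 7.24 CPM in SA tumors 1, 2 and 3 and 0.316, 0.367 and 1.23 CPM in WT penis 1, 2 and 3. The lowest tumor thus lay far above the highest normal sample, and the SA tumors differed among themselves by 1.20-fold whereas the WT samples differed by 3.89-fold. The log2 fold change was 3.37 ± 0.452 (SE, adjusted p = 0.000385), and the ratio of the group means was 10.1. The WT values rested on 7, 11 and 27 counts, and WT penis 3 gave the highest of them. With each library left out in turn or another test, filter or scaling, the log2 fold change of Tnf stayed between 3.05 and 4.20 and past the threshold in all 17 alternatives, the highest being that without WT penis 3.

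The TNF receptor genes moved in opposite directions. Tnfrsf1b (chr4:145212368-145246870, minus strand) stood at 35.2, 40.8 and 52.8 CPM in SA tumors 1 to 3 and at 10.3, 9.11 and 9.34 CPM in WT penis 1 to 3. It rose by a log2 fold change of 2.17 ± 0.167 (adjusted p = 1.99e-05). Its groups were well apart, with SA tumor 3 the highest library. Tnfrsf1a (chr6:125349723-125362483, plus strand) stood at 127, 162 and 148 CPM in SA tumors and at 247, 229 and 249 CPM in WT penis. It fell by 0.73 ± 0.112 on the log2 scale (adjusted p = 0.000752), with no overlap of the groups. The drop held under scaling by library totals only, and it was past the threshold in 16 of 17 alternatives, the exception being a test against a log2 fold change of 1.

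The balance between both receptors was therefore read within each library, from TPM values, which are per length and need no scaling between libraries. The log2 ratio of Tnfrsf1b to Tnfrsf1a was -3.04, -3.18 and -2.67 in SA tumors 1 to 3 and -5.77, -5.83 and -5.92 in WT penis 1 to 3. Tnfrsf1a transcripts thus outnumbered Tnfrsf1b transcripts in every library, by less in SA tumors. The means were -2.96 ± 0.261 and -5.84 ± 0.0743 (SD, n = 3 each), a difference of 2.88 or 7.36-fold. The exact permutation test (two-sided) gave p = 0.1, the smallest value that 3 against 3 samples allow, and 0.1 after adjustment over the 3 ratios tested. Both genes already separated the groups, in opposite directions, so this p was fixed by them and adds no further support.

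Tnfrsf11b, the osteoprotegerin gene (chr15:54250619-54278484, minus strand), showed the largest difference of the 10 genes. Its levels were 57.7, 35.2 and 28.7 CPM in SA tumors 1, 2 and 3 and 0.407, 0.601 and 0.775 CPM in WT penis 1, 2 and 3. Every tumor was far above every normal sample, and SA tumor 1 was the highest. The log2 fold change was 6.08 ± 0.361 (adjusted p = 6.54e-06), and the ratio of the means was 68.2. The WT levels rested on 9, 18 and 17 counts, above the floor of 3 counts in each library.

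Tnfsf11, which encodes RANKL (chr14:78277446-78308043, minus strand), was the least abundant of the 10 genes. It stood at 0.557, 0.497 and 1.78 CPM in SA tumors 1, 2 and 3 and at 0.136, 0.234 and 0.228 CPM in WT penis 1, 2 and 3, from 15, 15 and 219 counts and from 3, 7 and 5 counts. The groups did not overlap, WT penis 1 was at the floor, and SA tumor 3 stood well above the other tumors. The log2 fold change of 2.32 ± 0.633 missed the threshold (adjusted p = 0.0147). Counting intervals (exact Poisson, 95%) were 0.312 to 0.919 CPM for SA tumor 1 and 0.278 to 0.819 CPM for SA tumor 2, and they overlapped those of WT penis 1, 2 and 3, which reached 0.396, 0.481 and 0.532 CPM. The interval of SA tumor 3, 1.55 to 2.03 CPM, overlapped none. Intervals and floors cover counting error only.

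The call for Tnfsf11 turned on single libraries and on the tool. Without SA tumor 3 the log2 fold change dropped to 1.36, the lowest value of any alternative. Without SA tumor 1 it was 2.57 with an adjusted p of 0.00847. DESeq2 gave 2.26 (adjusted p = 0.00688), and edgeR with library totals only gave 2.60 (adjusted p = 0.00900).

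Tnfrsf11a, the gene of the signalling receptor RANK (chr1:105780673-105849444, plus strand), was not detectably different. It stood at 5.17, 6.95 and 9.23 CPM in SA tumors and at 6.37, 6.31 and 8.02 CPM in WT penis, and the groups overlapped. The log2 fold change was 0.06 (adjusted p = 0.858), with an approximate 95% interval from -0.41 to 0.52. The interval used the normal quantile and is narrower than one from the F-test. The sign of the log2 fold change reversed when SA tumor 3, WT penis 1 or WT penis 2 was left out (-0.18, -0.01 and -0.02). Within the RANKL axis the decoy receptor gene was therefore the member past the test.

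The log2 ratio of Tnfsf11 to Tnfrsf11b within a library was -6.33, -5.78 and -3.67 in SA tumors 1 to 3 and -1.15, -0.98 and -1.37 in WT penis 1 to 3, on TPM with 0.01 added. Decoy receptor transcripts outnumbered RANKL transcripts in all 6 libraries, and by more in each SA tumor than in any WT sample. SA tumor 3, with the most Tnfsf11 and the least Tnfrsf11b of the tumors, lay closest to the WT samples. The means were -5.26 ± 1.40 and -1.17 ± 0.196 (SD, n = 3 each), a difference of -4.09 or 17.0-fold, with an exact permutation p of 0.1, the smallest possible. Alternatives gave -4.88, without SA tumor 3, to -3.55, without SA tumor 1. The plot of the ratios gives the value of every library.

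**Figure D2:**
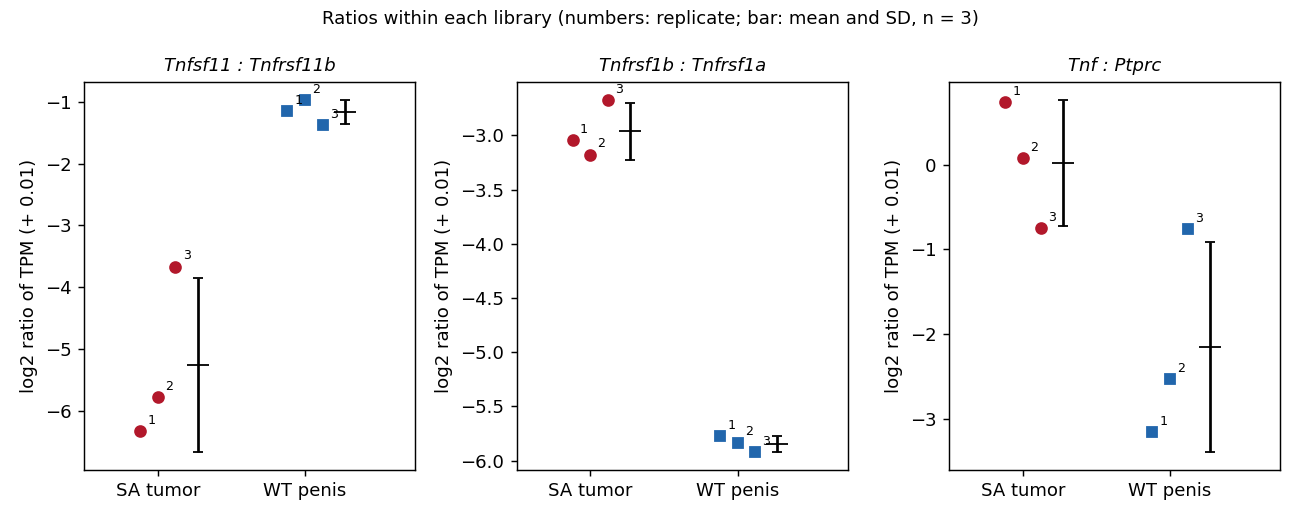
Each panel plots 1 log2 ratio of TPM values (0.01 added to each) per library, with replicate numbers beside the points and bars for mean and SD (n = 3). SA tumors lie below WT penis for Tnfsf11 to Tnfrsf11b and above it for Tnfrsf1b to Tnfrsf1a and Tnf to Ptprc.

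Nfkbia (chr12:55489409-55492647, minus strand), the IκBα gene whose promoter is printed above, fell in SA tumors while Tnf rose. It stood at 106, 122 and 105 CPM in SA tumors 1 to 3 and at 165, 196 and 181 CPM in WT penis 1 to 3. All tumors lay below all normal samples, and it fell by 0.70 ± 0.107 on the log2 scale (adjusted p = 0.000779). With library totals only it had a log2 fold change of -0.42 and was no longer called (adjusted p = 0.0118).

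Nfkb1 (chr3:135584655-135691969, minus strand), which encodes the canonical subunit that pairs with RelA, stood at 113, 112 and 134 CPM in SA tumors and at 151, 175 and 170 CPM in WT penis. The groups were apart by a narrow margin, and Nfkb1 fell by 0.47 ± 0.110 on the log2 scale (adjusted p = 0.00715). The call was lost under upper-quartile scaling (-0.40, adjusted p = 0.0159), under library totals only (-0.18, adjusted p = 0.209), and without SA tumor 1, SA tumor 2, WT penis 2 or WT penis 3 (adjusted p = 0.0214 to 0.0313).

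The noncanonical subunit genes did not pass the test. Nfkb2 (chr19:46300994-46312400, plus strand), whose promoter held the most κB matches, stood at 32.8, 38.5 and 39.7 CPM in SA tumors and at 40.9, 43.0 and 48.1 CPM in WT penis. Its groups were just apart, with a log2 fold change of -0.25 ± 0.116 (adjusted p = 0.104). Psd overlaps Nfkb2 on the opposite strand, and the libraries were stranded, but how strand was treated in counting is not given in the sources used here. Relb (chr7:19606217-19629438, minus strand), the partner of the Nfkb2 product, stood at 20.0, 25.0 and 20.3 CPM in SA tumors and at 25.3, 23.3 and 27.3 CPM in WT penis, with overlapping groups and a log2 fold change of -0.22 ± 0.131 (adjusted p = 0.196). With library totals only both took the opposite sign (0.04 and 0.07).

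The order of the 10 genes by TPM, a level per length, showed which of them dominated in each tissue. In SA tumors Nfkbia (125 ± 6.66 TPM) and Tnfrsf1a (120 ± 12.4) led, within their spread of each other, followed by Nfkb1 (51.6 ± 6.72). Tnfrsf11b (25.5 ± 9.72) came next and was not separated from Nfkb2 (21.5 ± 2.25), and Relb (17.5 ± 1.68) was not separated from Tnfrsf1b (15.5 ± 3.59). Tnf (6.93 ± 0.916), Tnfrsf11a (2.52 ± 0.767) and Tnfsf11 (0.759 ± 0.601) closed the order. In WT penis the top of the order was alike, with Nfkbia at 157 ± 21.2 TPM and Tnfrsf1a at 154 ± 11.2. Tnfrsf11b stood near the end there (0.293 ± 0.106), within its spread of Tnf (0.543 ± 0.461) and above Tnfsf11 (0.124 ± 0.0397). Osteoprotegerin transcripts were thus among the rarest of these genes in WT penis and at the level of Nfkb2 in SA tumors.

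Among other genes of the pathway, drawn from 7 lists (ligands, receptors, adaptors, kinases, Rel and IκB proteins, negative regulators and targets), 26 of the 85 tested rose and 9 fell, and 50 did not pass the test, beside 20.1% and 17.5% of all genes. Their median log2 fold change was 0.31. With the 10 genes included, 29 of 95 rose and 12 fell. Without WT penis 2 those that fell numbered 7, and with library totals only 45 rose and 4 fell. The counts by list are drawn in the plot of the pathway lists, which shows the ligands and receptors spread widest.

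**Figure D3:**
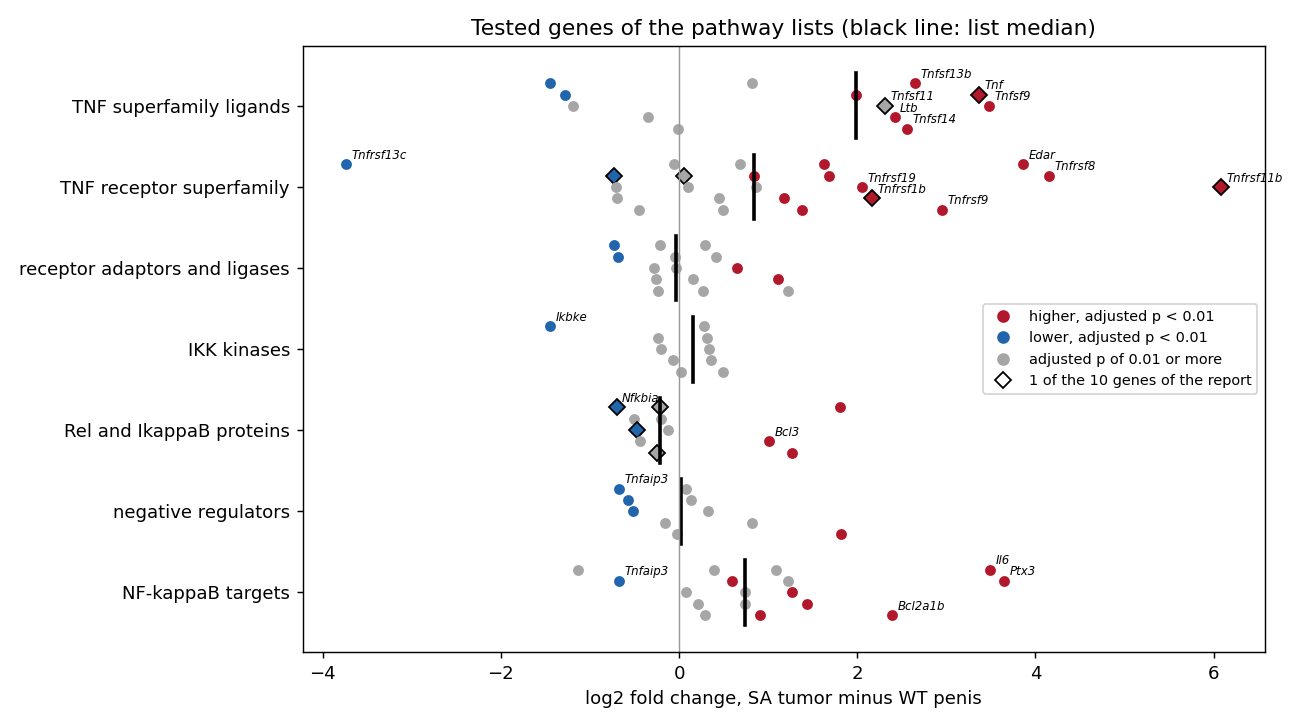
Each point is 1 tested gene placed by its log2 fold change (SA tumor minus WT penis), in rows by list, with black lines at list medians and diamonds for the 10 genes described. Ligands have a median of 1.99 (0.82 without Tnf and Tnfsf11), receptors of 0.84, and the adaptor, kinase and Rel lists lie near 0.

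Of the TNF superfamily ligands, 6 of 13 tested rose and 2 fell, with a median log2 fold change of 1.99. Without Tnf and Tnfsf11, 5 of 11 rose and 2 fell, with a median of 0.82. Besides Tnf, the costimulatory ligand Tnfsf9 rose from 0.744 ± 0.254 to 8.42 ± 2.93 CPM (3.48), and the B cell survival factor Tnfsf13b (BAFF) from 1.74 ± 0.316 to 10.9 ± 3.58 CPM (2.65). Tnfsf14 (LIGHT, 2.56), Ltb (lymphotoxin beta, 2.42) and Tnfsf15 (1.99) also rose, with 1 to 9 counts of Tnfsf14 in each WT library. Tnfsf12 (TWEAK), the ligand gene with the highest CPM, fell from 24.8 ± 0.435 to 8.99 ± 4.29 CPM (-1.45), and Eda, the ectodysplasin gene, fell by 1.28. A read-through gene shares the Tnfsf12 locus. Tnfsf14, Ltb and Tnfsf12 each lost their call in 4 of 6 fits without 1 library and Tnfsf15 in 3 of 6, at log2 fold changes of 2.16 to 3.71, 1.85 to 2.96, -1.82 to -1.14 and 1.65 to 2.32 over all 6.

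Of the TNF receptor superfamily, 11 of 23 tested rose and 2 fell, with a median of 0.84. Tnfrsf8 (CD30) rose from 0.112 ± 0.0797 to 2.18 ± 0.129 CPM (4.15), its WT level resting on 9 counts in all. Without 1 library it stayed called at 3.80 to 4.92, the highest without WT penis 2. Edar, the ectodysplasin receptor of skin appendages, rose from 1.26 ± 0.609 to 18.6 ± 5.72 CPM (3.87) while its ligand gene Eda fell. Tnfrsf9, the receptor of Tnfsf9, rose with it, from 0.515 ± 0.161 to 3.95 ± 1.42 CPM (2.95); Camta1 overlaps it on the opposite strand. Tnfrsf19, the receptor gene with the highest CPM after Tnfrsf1a, rose from 39.9 ± 4.93 to 166 ± 40.1 CPM (2.05). Tnfrsf13c, the BAFF receptor of B cells, fell from 4.26 ± 0.180 to 0.335 ± 0.0983 CPM (-3.73), opposite to the ligand Tnfsf13b. The sums of 4 B cell markers overlapped, at 0.911 to 1.18 CPM in WT penis and 0.520 to 1.42 CPM in SA tumors.

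Downstream of the receptors most genes did not pass the test. Of 15 adaptors and ligases, 2 rose (Traf3 by 1.11 and Traf6 by 0.65 on the log2 scale) and 2 fell (Fadd by 0.68 and Traf5 by 0.73), and Rbck1, the highest in CPM, had -0.28 (adjusted p = 0.0232). Of the 10 IKK kinase genes, Ikbke alone passed, falling from 61.5 ± 2.77 to 22.5 ± 4.18 CPM (-1.45), and Tab2, the highest in CPM, had -0.07 (adjusted p = 0.583). Of 11 Rel and IκB genes, Bcl3 (1.01), Nfkbid (1.80) and Nfkbie (1.26) rose, and Nfkbia and Nfkb1 were the 2 that fell. Nfkbiz, the highest in CPM of the remaining ones, had -0.43 (adjusted p = 0.0497), and Rela, the main canonical partner, stood at 90.3 ± 10.9 and 104 ± 5.54 CPM (-0.20, adjusted p = 0.165). Thus 3 IκB family genes rose where Nfkbia fell. With library totals only, 7 adaptor and 5 kinase genes rose, while none of the adaptors and 1 kinase gene, Ikbke, fell.

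Of 10 negative regulators, Tnip3 rose (1.81) and 3 fell. The 3 were Tnfaip3, which encodes the ubiquitin-editing protein A20 (46.4 ± 4.31 to 29.1 ± 1.94 CPM, -0.68), Cyld, a deubiquitinase (-0.58), and Tax1bp1, an A20 adaptor (270 ± 19.2 to 189 ± 10.1 CPM, -0.51). With library totals only none of these 3 was called. Tnfaip3 is, like Nfkbia, a feedback inhibitor that NF-κB induces, and it moved in the direction of Nfkbia. Cyld, Traf5 and Nfkbie were not called in 5 of 6 fits without 1 library, Traf6 in 4, Tnip3 in 2 and Tax1bp1 in 1, at log2 fold changes of -0.69 to -0.48, -0.85 to -0.66, 0.98 to 1.46, 0.49 to 0.75, 1.56 to 2.03 and -0.56 to -0.46.

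Of 17 tested NF-κB target genes, 7 rose and 1, Tnfaip3, fell, with a median of 0.74. Scaling by library totals gave 11 that rose and 0 that fell, with a median of 1.02. Il6, the cytokine gene, rose from 0.0636 ± 0.0316 to 0.744 ± 0.319 CPM (3.49), with 1 to 3 counts in each WT library and a ratio of pooled counts of 13.9 (counting interval 5.83 to 43.3). Ptx3, a soluble pattern recognition protein, rose from 0.180 ± 0.163 to 2.20 ± 1.27 CPM (3.64), with 1 to 8 counts in each WT library. Bcl2a1b, a survival gene, rose from 0.553 ± 0.461 to 2.84 ± 0.533 CPM (2.39), and sharing of reads with its close paralogs was not measured. The immediate early gene Ier3 (1.43), the adhesion molecule gene Icam1 (0.91), Nfkbie and the chemokine gene Cx3cl1 (0.59) rose by less. Lcn2, the target with the highest CPM, was 94.0 ± 47.5 CPM in SA tumors and 206 ± 112 in WT penis, with overlapping groups (-1.13, adjusted p = 0.111). Ptx3 and Bcl2a1b lost their call in 3 of 6 fits without 1 library and Cx3cl1 in 5 of 6 (log2 fold changes of 3.21 to 4.51, 2.04 to 3.28 and 0.49 to 0.68).

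Because leukocytes are the main source of TNF and, with endothelium, carry most of the Tnfrsf1b receptor, marker lists were read beside both genes. The summed level of 6 leukocyte markers was 78.6, 147 and 228 CPM in SA tumors 1, 2 and 3 and 53.2 to 83.3 CPM in WT penis, so SA tumor 1 lay inside the WT range. Laptm5, the highest of them in CPM, was 51.4 ± 23.4 and 23.7 ± 6.47 CPM (1.13, adjusted p = 0.0454), and the pan-leukocyte gene Ptprc was 24.3 ± 15.0 and 8.09 ± 1.54 CPM (1.60, adjusted p = 0.0187). Without SA tumor 1 both were called, at 1.44 and 1.91, and without SA tumor 3 they were at 0.82 and 0.97 and not called. Of these 6, Cd53 was called, and not in 4 of 6 fits without 1 library (1.00 to 1.83). Under scaling by library totals 3 of the 6 were called. Tnf differed by 1.20-fold among the SA tumors, over which this sum ran from 78.6 to 228 CPM, and Tnfrsf1b was highest in SA tumor 3 with the sum. The log2 ratio of Tnf to Ptprc in TPM was 0.73, 0.07 and -0.75 in SA tumors 1 to 3 and -3.16, -2.53 and -0.76 in WT penis 1 to 3. Its means were 0.02 ± 0.745 and -2.15 ± 1.24 (exact permutation p = 0.1, the smallest possible), a difference of 2.17, with SA tumor 3 and WT penis 3 nearly equal. Alternatives gave 1.67 to 2.86, the highest without WT penis 3, and with 0.1 TPM added in place of 0.01 the difference was 1.93 and the groups overlapped (exact permutation p = 0.2).

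Markers of single leukocyte types differed in how they moved, as the plot of the marker sums shows. Of 6 tested neutrophil markers 5 rose, and their sum was 1492 to 2540 CPM in SA tumors against 68.4 to 172 in WT penis. S100a9 (36.1 ± 15.7 to 1049 ± 289 CPM) and S100a8 (46.0 ± 15.8 to 783 ± 230 CPM) made up most of the mean SA sum. Keratinocytes also make both. The primary granule genes Mpo and Elane and the granule gene Ngp were near 0 in all libraries. Of 7 tested T cell markers Cd5 (2.79) and Lck (2.07) rose and 5 did not pass the test. Among the latter, Cd3e was 1.60 ± 1.25 and 0.665 ± 0.271 CPM (adjusted p = 0.0891). The sums were 31.6 to 34.6 and 6.20 to 11.3 CPM, with Cd5 (20.1 ± 4.79 and 2.89 ± 0.180 CPM) the largest part of each SA sum. Among the tumors, SA tumor 1 had the highest Cd5 (23.9 CPM) and the lowest Cd3e (0.632 CPM). Of 10 macrophage markers none rose and Cd163 fell (-1.57, lost without WT penis 1 or WT penis 3, with -1.84 to -1.34 over the fits without 1 library), with sums of 158 to 387 and 240 to 342 CPM. Adgre1 was 10.1 ± 4.34 and 10.2 ± 2.79 CPM, and Csf1r, the highest in CPM, had 0.36 (adjusted p = 0.485), or 0.71 and called without SA tumor 1 and -0.01 without SA tumor 3. Of 6 mast cell markers 1 (Kit) rose, with sums of 32.3 to 94.1 and 29.4 to 46.0 CPM and Mcpt4 at 0.26 (adjusted p = 0.644). Of 4 B cell markers only Cd79b was testable (0.24, adjusted p = 0.710), with sums of 0.520 to 1.42 and 0.911 to 1.18 CPM. The part of leukocyte content in the Tnf and Tnfrsf1b values was not tested.

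**Figure D4:**
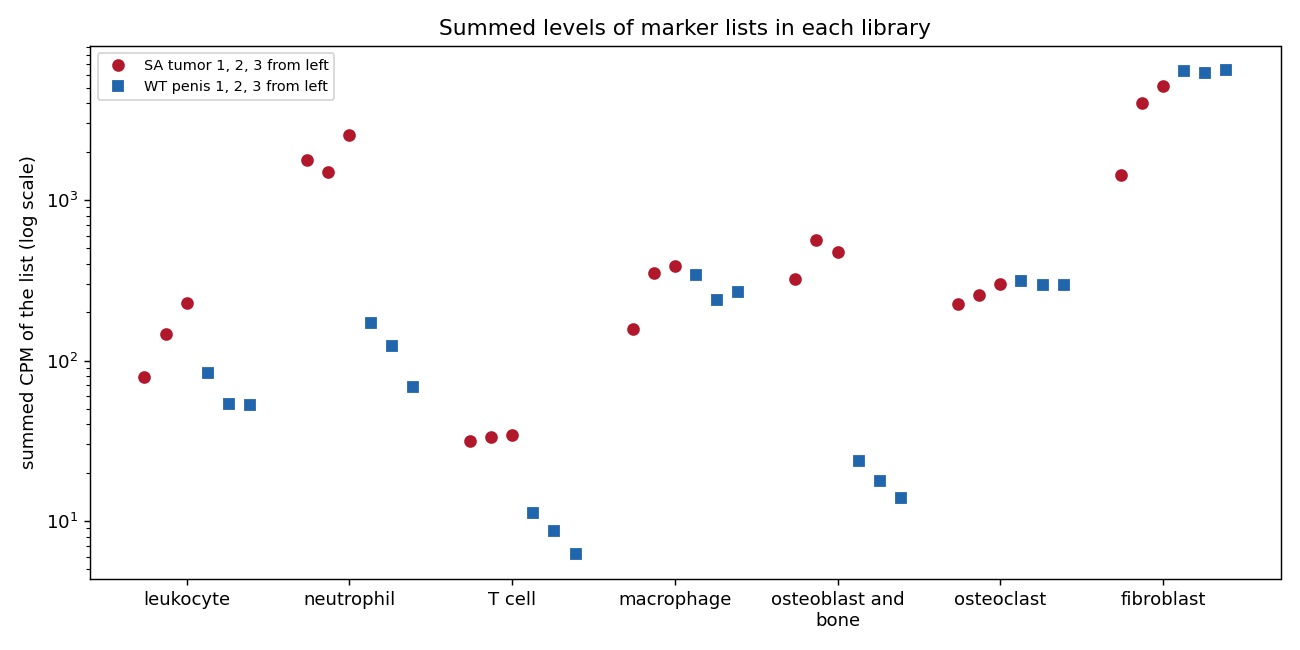
Points give the summed CPM (log scale) of each marker list in each library, SA tumors 1 to 3 and WT penis 1 to 3 from left to right. Neutrophil, T cell and bone sums are higher and fibroblast sums lower in every SA tumor, while leukocyte, macrophage and osteoclast sums overlap between groups.

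Since RANKL and osteoprotegerin govern bone remodelling, markers of bone cells were read beside them. Of 7 tested osteoblast and bone markers 5 rose and 2 did not pass the test. The summed level was 322 to 564 CPM in SA tumors and 13.9 to 23.6 in WT penis. Spp1 alone made up most of the mean SA sum, and whether bone cells were present was not tested. Spp1 (osteopontin) rose from 4.27 ± 0.506 to 358 ± 120 CPM (6.39), Runx2, the osteoblast transcription factor, from 2.38 ± 0.327 to 65.1 ± 7.64 CPM (4.77), and Sp7 (osterix) from 0.413 ± 0.0816 to 4.38 ± 1.70 CPM (3.39). Antisense genes and Supt3 overlap Runx2. Osteocalcin genes stayed rare. Bglap was 0.316 ± 0.0906 and 0.0454 ± 0.0456 CPM and was not testable, and Bglap2 was at 0 in every WT library and at 0.838 CPM in SA tumors, at least 6.75-fold above a floor of 3 counts per library. The list median was 4.77, or 3.39 with Bglap2 at that bound.

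Osteoclast markers moved in both directions, and their sums were 224 to 299 CPM in SA tumors and 295 to 313 in WT penis. Dcstamp (2.48) and Ocstamp (3.85), fusion genes of osteoclast precursors, rose from means under 0.5 CPM. Ocstamp had 0 to 3 counts in each WT library, with a ratio of pooled counts of 17.9 (counting interval 7.56 to 55.7). Acp5, the tartrate-resistant acid phosphatase gene, fell from 55.5 ± 10.8 to 30.0 ± 7.68 CPM (-0.88), and Nfatc1, the transcription factor that RANKL induces in osteoclast precursors, fell by 1.06. Ctsk was 68.0 ± 33.0 and 63.4 ± 7.02 CPM (adjusted p = 0.838), Car2, the highest in CPM, had 0.32 (adjusted p = 0.126), and Calcr was at or near 0. The call for Acp5 was lost in 4 of 6 fits without 1 library (-1.06 to -0.70).

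Stromal and epithelial markers also moved with the groups. All 5 smooth muscle markers fell (summed 34.9 to 120 CPM against 1476 to 1966, Myh11 -5.00, the latter lost in 3 of 6 fits without 1 library, -5.75 to -4.51). Of 6 endothelial markers 3 fell, with sums of 143 to 225 and 239 to 284 CPM and Pecam1 at -0.92, lost in 4 of 6 such fits (-1.18 to -0.77). None of these 6 was called under scaling by library totals only. Fibroblast markers summed to 1436, 4046 and 5119 CPM in SA tumors 1, 2 and 3 against 6159 to 6450 in WT penis. Thy1 rose and Dcn fell, calls lost in 4 and 3 of 6 such fits (1.40 to 1.90 and -2.13 to -1.51). Col3a1, the highest in CPM, had -1.15 (adjusted p = 0.125), or -0.72 and called without SA tumor 1. Keratinocyte markers, which define the labelled tissue, were abundant in all libraries (21417 to 27050 against 60807 to 67787 CPM summed). Of 9 keratinocyte markers 1, Epcam, rose and 5 fell, among them Krt5 (7614 ± 182 to 3284 ± 269 CPM, -1.21) and Krt10, the highest in CPM (-1.97). SA tumor 1, with the lowest leukocyte and fibroblast sums, had the highest Tnfrsf11b, at 57.7 CPM. The part of tissue composition in the levels of Tnfrsf11b, Tnfrsf1a, Nfkbia and Nfkb1 was not tested.

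The genes whose log2 CPM followed Tnf most closely over the 6 libraries were Cox18 (Pearson r = 0.999), 2310008N11Rik (0.998) and Prkag3 (0.997). Those nearest to Tnfsf11 were Cep85 (0.995), Slc18a1 (0.992) and Tlr6 (0.992). These libraries form 2 groups, so the values describe likeness across them and no more. Fold changes of the nearest genes could be small all the same, such as 0.63 for Cox18 and 0.28 for Cep85 on the log2 scale.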

How the data were processed

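RNA from 3 SA tumors and 3 WT penis samples was sequenced with a stranded paired-end protocol. Reads were aligned by the authors to mm10 (GRCm38) with Tophat and counted with HTSeq, and the deposited files hold raw counts per RefSeq transcript. TPM values were derived by the authors from the same counts and were used here only for levels between genes and ratios within a library. Deposited FPKM values were not used. Reads shared by transcripts of a gene were counted in each, so 33068 transcript rows were reduced to 1 row per symbol, the one with the highest mean count.

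Differential expression used edgeR 4.0.16 under R 4.3.3 (filterByExpr with a minimum of 10 counts and a total of 15, TMM, robust quasi-likelihood F-test, Benjamini-Hochberg adjustment over 16336 genes). Genes were called at an adjusted p under 0.01, and a log2 fold change of 2 was counted separately. CPM was TMM normalized. Standard errors were the log2 fold change divided by the square root of F. Depth was 23828283 to 110509147 counts per library. Within-library ratios were compared by exact permutation tests in scipy 1.17.1. Alternatives were DESeq2 1.42.0, limma-voom (limma 3.58.1), RLE, upper-quartile and library-total scaling, no filter, a minimum mean count of 50, glmTreat, the replicate block, SA tumor 3 thinned, summed transcript rows and each library left out. The same alternatives for genes outside the 10 were added after the data had been seen. The fits were tested on simulated data.

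The 10 genes and all lists were chosen with earlier results of these data known. From each pathway list up to 4 genes with the largest change past both thresholds and the gene with the highest CPM are named. From marker lists the gene with the highest CPM and Ptprc, Cd3e, Adgre1 (listed as Emr1), S100a8, Acp5, Ctsk, Bglap, Sp7 and Krt5 are named. Smad4, Apc and the nearest genes of Tnf and Tnfsf11 are also named by rule, and the others were chosen after their values were seen. The neutrophil gene Ly6g was not among the symbols. Gene coordinates and promoters are from RefSeq, and gene strands and overlaps from GENCODE, all on GRCm38.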

Additional observations from a re-analysis of the deposited data

How the results depend on the processing

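Scaling by library totals only gave 5248 genes higher and 1806 lower over all genes, and 45 higher and 4 lower among pathway genes. glmTreat against a log2 fold change of 1 gave 1539 higher and 755 lower, 3 of the 10 genes, and 11 higher and 2 lower pathway genes. Both thresholds together gave 1537 higher and 587 lower, 3 of the 10 genes, and 14 higher and 1 lower pathway genes. Without 1 library, genes higher ranged from 2361 to 3260, genes lower from 2055 to 2894, called genes of the 10 from 5 to 6, pathway genes higher from 20 to 29 and pathway genes lower from 7 to 13. For the 10 genes, 150 of 169 alternative values kept their direction and their side of the threshold, 11 were no longer past it, 3 were newly past it, and 5 changed sign without being called. With the replicate block Nfkb1 was no longer called (-0.47, adjusted p = 0.0138). Between same-numbered samples, residuals correlated at -0.13, -0.10 and 0.02. These values were not compared with those of differently numbered samples, so whether same-numbered samples share more than a number was not tested. With the replicate block the exact permutation tests of the ratios could not go below an exact permutation p of 0.25. Low counts limit Tnfsf11, and 3 libraries per group limit the ratio tests.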
